A study of Homo sapiens with 12 samples.

Results

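The genes described here are the metallothioneins MT2A, MT1X, MT1E, MT1F, MT1G and MT1M together with MTF1 and SLC30A1. They were chosen by gene symbol as the metal storage proteins, the zinc sensor and the main zinc exporter of human cells, and all 8 were found among the 25369 genes of the count table. RNA-seq of poly(A)+ RNA was carried out on 3 human cancer cell lines in culture: RKO, a colon carcinoma line, A549, a lung adenocarcinoma line, and H460, a lung large cell carcinoma line. The labels name no introduced genetic change and no drug in any group, and each line was held either in normoxia or in hypoxia at 1% O2 for 24 h. There were 2 biological replicates in each of the 6 groups of line and oxygen, which made 12 libraries. RKO and A549 cells grew in DMEM and H460 cells in RPMI, both with fetal bovine serum, so in comparisons with H460 line and medium cannot be told apart. Each line is a single established culture, and its values stand for that line and not for a tumour type.

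Metallothioneins are small cytoplasmic proteins rich in cysteine that bind zinc and copper and buffer the free metal in the cell. When free zinc rises, the zinc-finger protein MTF1 binds metal response elements in the promoters of the metallothionein genes and of SLC30A1 and raises their transcription. SLC30A1, also called ZnT1, moves zinc out across the plasma membrane. Metallothionein genes are also known to be induced by glucocorticoids, oxidative stress and, in several cell types, by low oxygen.

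In the build of the deposited tables (GRCh37), the 6 metallothioneins among the members lie in one cluster on chromosome 16. MT2A lies on the plus strand at chr16:56642478-56643409, MT1E at chr16:56659585-56661024, MT1M at chr16:56666534-56667898, MT1F at chr16:56691855-56693215 and MT1X at chr16:56716382-56718108. MT1G lies on the minus strand at chr16:56700653-56701977. MTF1 lies on the minus strand at chr1:38275239-38325292 and SLC30A1 on the minus strand at chr1:211748381-211752099. None of the 8 spans overlapped another gene row, leaving aside rows pooled from copies on several chromosomes. The values are read counts over all exons of a gene.

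The promoters of MT2A, MT1X and SLC30A1 are shown because MTF1 is known to act on these genes through metal response elements. They are the 250 bases before the gene start from RefSeq on GRCh38.p14, 5′ to 3′ on the strand of the gene, and capitals mark the core of the metal response element, TGCACNC or TGCGCNC, on either strand. The MT2A window is chr16:56608334-56608583 on the plus strand, the MT1X window chr16:56682220-56682469 on the plus strand and the SLC30A1 window chr1:211579162-211579411 on the minus strand.
MT2A: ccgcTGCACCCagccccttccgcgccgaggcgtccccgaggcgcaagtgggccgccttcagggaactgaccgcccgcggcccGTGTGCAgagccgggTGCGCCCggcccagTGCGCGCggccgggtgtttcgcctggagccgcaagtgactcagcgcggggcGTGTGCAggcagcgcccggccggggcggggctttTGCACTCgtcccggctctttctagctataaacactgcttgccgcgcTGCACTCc
MT1X: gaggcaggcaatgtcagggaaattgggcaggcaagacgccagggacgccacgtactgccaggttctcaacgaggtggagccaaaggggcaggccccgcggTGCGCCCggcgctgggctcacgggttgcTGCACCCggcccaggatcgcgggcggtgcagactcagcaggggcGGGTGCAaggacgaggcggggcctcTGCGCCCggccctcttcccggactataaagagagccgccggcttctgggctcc
SLC30A1: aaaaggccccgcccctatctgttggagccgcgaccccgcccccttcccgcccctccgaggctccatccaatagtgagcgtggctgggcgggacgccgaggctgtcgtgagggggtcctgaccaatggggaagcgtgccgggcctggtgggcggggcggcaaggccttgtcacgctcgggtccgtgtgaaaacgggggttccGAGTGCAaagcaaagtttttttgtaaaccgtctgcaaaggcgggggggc

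The MT2A promoter held 7 cores, of which the nearest began 8 bases before the gene start, and the MT1X promoter held 4. At least 7 cores were found in 0.0313% of 35116 promoters of the same length and at least 4 in 0.370%, counts that include the metallothionein promoters themselves. The SLC30A1 promoter held 1 core, where 24.8% of all promoters held at least 1, and the MTF1 promoter held 0. The core of the hypoxia response element, ACGTG or GCGTG on either strand, was found 1 time in MT2A, where it overlapped a metal response element core, and 1 time in MT1X. At least 1 match was found in 43.2% of all promoters. The core was found 3 times in SLC30A1, where 7.76% of all promoters held at least 3, and 2 times in MTF1, where 19.4% held at least 2. Of the 8 genes, 4 matched the promoter table, and MT1E, MT1F, MT1G and MT1M were not among them. These matches are descriptions of the letters and not measurements of binding.

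The metallothioneins are close copies of each other, and the authors removed reads of low mapping quality, so reads shared between copies could be lost. In GENCODE transcripts, the member whose whole transcript was most like another was MT1M, at 91.9% identity to MT1JP, followed by MT1G, at 88.9% identity to MT1H. No stretch of 150 bases, the read length, in the transcripts of the 6 members matched another metallothionein transcript with 2 or fewer differences. The smallest number of differences over such a stretch was 4 for MT1M, 5 for MT2A and MT1G, 6 for MT1X, and 8 for MT1E and MT1F. Only the transcripts of the family were compared, and reads can be shorter than 150 bases after trimming. The MT1E transcript used had 332 bases against 506 in the deposited length. Those of the annotated pseudogenes MT1L (186 against 426), MT1DP (150 against 569) and MT1IP (182 against 374) were also short. Bases outside these transcripts were not searched, so the apportioning of reads between copies, among them MT1E and MT1L, stays uncertain. For that reason the family sum is given below beside the single genes.

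The libraries held 27350424 to 41757584 counted reads. The hypoxia markers CA9, NDRG1, VEGFA, SLC2A1 and PDK1 rose in every line, 5 of 5 in each. Between the hypoxic A549 libraries NDRG1 differed, at 28180 and 60550 reads. It also differed between the normoxic RKO libraries, at 4041 and 1171 reads. Values without single libraries of these groups are given with the results. Of the 5 colon markers, RKO had CDX2, at 377 to 619 reads, while CDX1 and VIL1 were at 0 and LGALS4 and CDH17 had at most 2 reads. The colon markers CDH17 and LGALS4 were instead read in A549, at 66 to 105 and 23 to 61 reads. Of the 5 lung markers, A549 had NAPSA, at 133 to 179 reads, while SFTA3 was at 0 and NKX2-1, SFTPB and SFTPC had at most 8 reads. The surfactant genes SFTPB and SFTPC had at most 1 read in any H460 library. Of the 4 epithelial markers, CDH1 had 2 to 4 reads in RKO and 10 to 18 in H460, and EPCAM had 171 to 230 and 3 to 17. KRT8 had 307 to 525 reads in RKO and 13217 to 24212 in H460, and KRT18 had 3327 to 6870 and 10968 to 17333. In A549 each of these markers had at least 456 reads. The blood cell gene PTPRC had at most 3 reads and the endothelial gene PECAM1 at most 3 in any library. Of the 17 markers, KRT18 fell in RKO, COL1A1 rose in RKO and A549 (in A549 from 1972 and 3395 to 5410 and 14762 reads) and NKX2-1 rose in H460 (from 2 and 0 to 87 and 98 reads). The part of these changes in the results below was not tested. In bulk RNA, a change in RNA per cell and a change in the share of cells with the RNA cannot be told apart.

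In normoxia, the lines held very different amounts of metallothionein RNA, with RKO the highest, A549 between and H460 the lowest. Levels are deposited RPKM, which are counts scaled by gene length and by the total of the library. MT2A, the most widely expressed metallothionein, stood at 1610 and 1841 RPKM in the RKO libraries. It stood at 184 and 189 RPKM in A549 and at 68.9 and 61.6 RPKM in H460. MT1X, an inducible MT1 isoform, stood at 199 and 176 RPKM in RKO, 17.1 and 25.4 RPKM in A549 and 2.35 and 1.68 RPKM in H460. The ranges of the 3 lines did not overlap for either gene.

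A joint edgeR fit of all 12 libraries with contrasts between normoxic groups gave the size of these steps. MT2A was higher in RKO than in A549 by 3.20 ± 0.19 on the log2 scale (SE, adjusted p = 1.9e-09) and higher in A549 than in H460 by 1.49 ± 0.18 (adjusted p = 7.4e-06). MT1X was higher in RKO than in A549 by 3.14 ± 0.39 (adjusted p = 6.4e-06) and higher in A549 than in H460 by 3.38 ± 0.50 (adjusted p = 4.8e-05). Both steps were therefore larger than the spread between replicates. A gene was called here, as in the fits within lines, at an adjusted p under 0.1 over all genes tested and a fold change over 1.5.

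MT1E, MT1M and MT1F were also highest in normoxic RKO, and MT1E and MT1M were close to silent in both lung lines. MT1E had 4204 and 5658 reads in RKO, against 8 and 5 in the A549 libraries and 2 in each H460 library. From the summed reads the level in RKO was 810 times that in A549 (95% exact binomial interval 474 to 1522) and 1983 times that in H460 (774 to 7279), intervals that cover counting error only. MT1M had 642 and 559 reads in RKO, against 0 in both A549 libraries and 2 and 1 in the H460 libraries. It was at least 214-fold higher in RKO than in A549, taking 3 counts per library as the floor, and 322 times the level in H460 (110 to 1563).

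MT1F had 82 and 79 reads in normoxic RKO, against 24 and 26 in the A549 libraries and 5 and 2 in the H460 libraries. It was higher in RKO than in A549 by 1.78 ± 0.41 on the log2 scale (adjusted p = 0.0014). MT1G had 1 and 0 reads in normoxic RKO and 0 in every normoxic library of A549 and H460, so no fold is given. A count of 0 allows up to 3 counts, which is 0.0714 to 0.106 CPM (counts relative to library size) in the normoxic A549 and H460 libraries.

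The sensor and the exporter differed far less between lines, and the exporter stood in another order. MTF1 was at 5.17 and 5.22 RPKM in RKO, 2.49 and 2.52 RPKM in A549 and 2.98 and 2.89 RPKM in H460. It was higher in RKO than in A549 by 1.04 ± 0.14 and than in H460 by 0.79 ± 0.14 on the log2 scale (adjusted p = 1.6e-05 and 0.00019), while A549 and H460 were not called apart (-0.25 ± 0.14, adjusted p = 0.157). SLC30A1 was at 4.39 and 7.53 RPKM in RKO, 18.5 and 13.3 RPKM in A549 and 8.53 and 9.08 RPKM in H460. SLC30A1 was highest in A549, with a log2 difference of -1.43 ± 0.24 for RKO minus A549 (adjusted p = 0.00011) and of 0.84 ± 0.24 for A549 minus H460 (adjusted p = 0.0078). The latter stayed called in all alternatives but the fit without A549 normoxia replicate 1 (0.57, adjusted p = 0.083).

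RKO and H460 were next to each other in the order for SLC30A1, at a difference of -0.60 ± 0.24 (adjusted p = 0.040), a call that was lost without RKO normoxia replicate 1 (-0.29, adjusted p = 0.332), without H460 normoxia replicate 2 (-0.58, adjusted p = 0.122) and with scaling by library size only (-0.56, under the fold threshold). Between normoxic RKO and A549, 7 of the 7 members in the joint fit were called, against 60.2% of the 15595 genes tested. In normoxic H460 against RKO, 7 were called and 61.9% of genes were. For the lung lines against each other these values were 5 members and 52.1% of genes, and 1 of the 5 was MT1M, at 0 and 0 against 2 and 1 reads. MT1G was not in the joint fit because of its low counts.

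**Figure D1:**
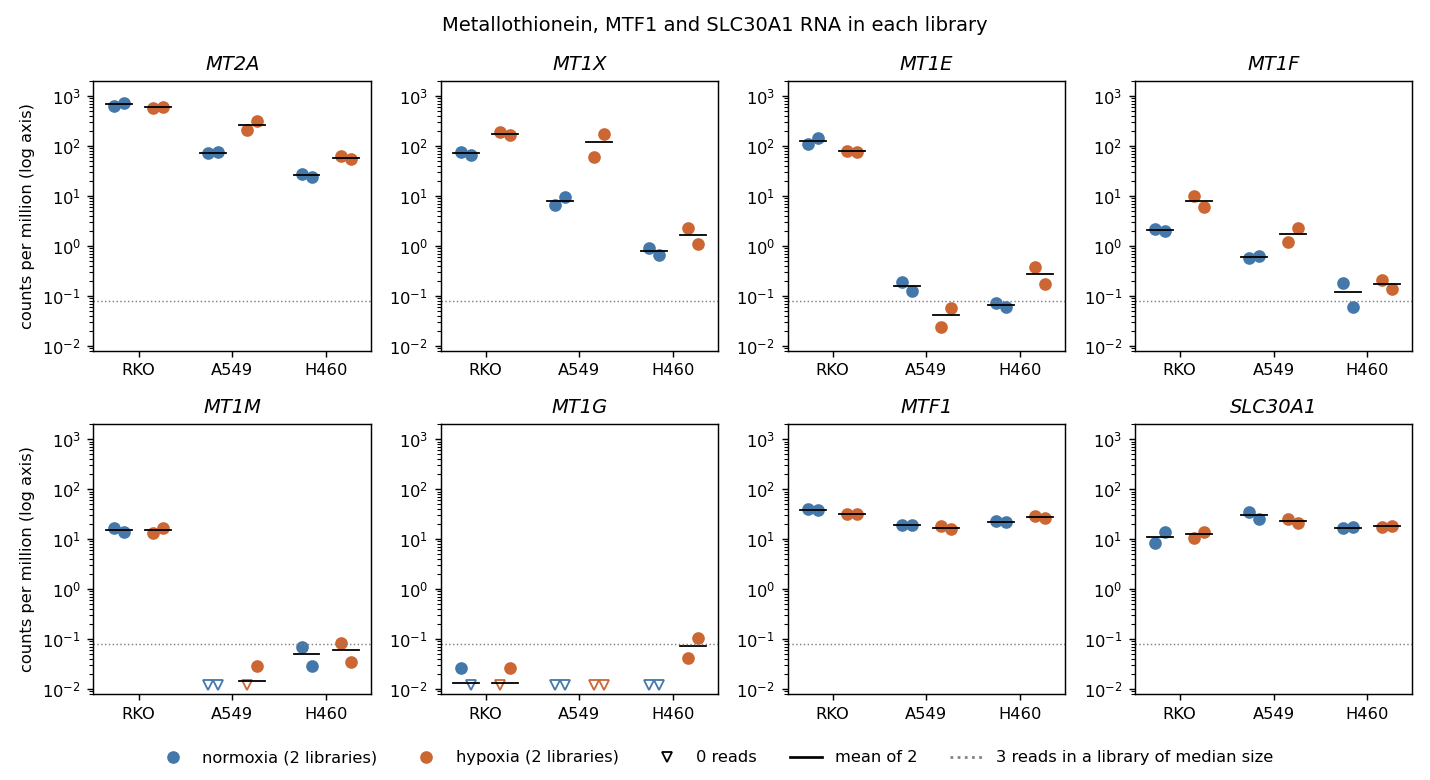
CPM (read counts relative to library size), scaled by TMM over the 12 libraries, on a log axis for each of the 8 genes, with a point per library, a bar for the mean of 2 replicates and open triangles for libraries with 0 reads. MT2A and MT1X rise with hypoxia in A549 and H460, MT1E is high only in the RKO panels, at 2881 to 5658 reads against 9 or fewer in any A549 or H460 library, and SLC30A1 runs from 8.47 to 35.6 CPM over the 12 libraries.

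Along the cluster, the active genes were not the same in every line. RKO also had reads of MT1L, an annotated pseudogene between MT2A and MT1E, with 4816 and 3681 reads in normoxia and 5575 and 4914 in hypoxia, against at most 8 in any library of the other lines. H460 alone had more than 1 read of MT1A, at 141 and 128 reads in normoxia and 130 and 132 in hypoxia. MT1H had 1 read in all 12 libraries together although its promoter held 8 metal response element cores, a number reached in 0.0171% of all promoters. MT1IP and MT4 had 0 reads in every library, and MT3, a form known mainly from brain, had 0 reads except 14 and 11 in hypoxic H460.

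**Figure D2:**
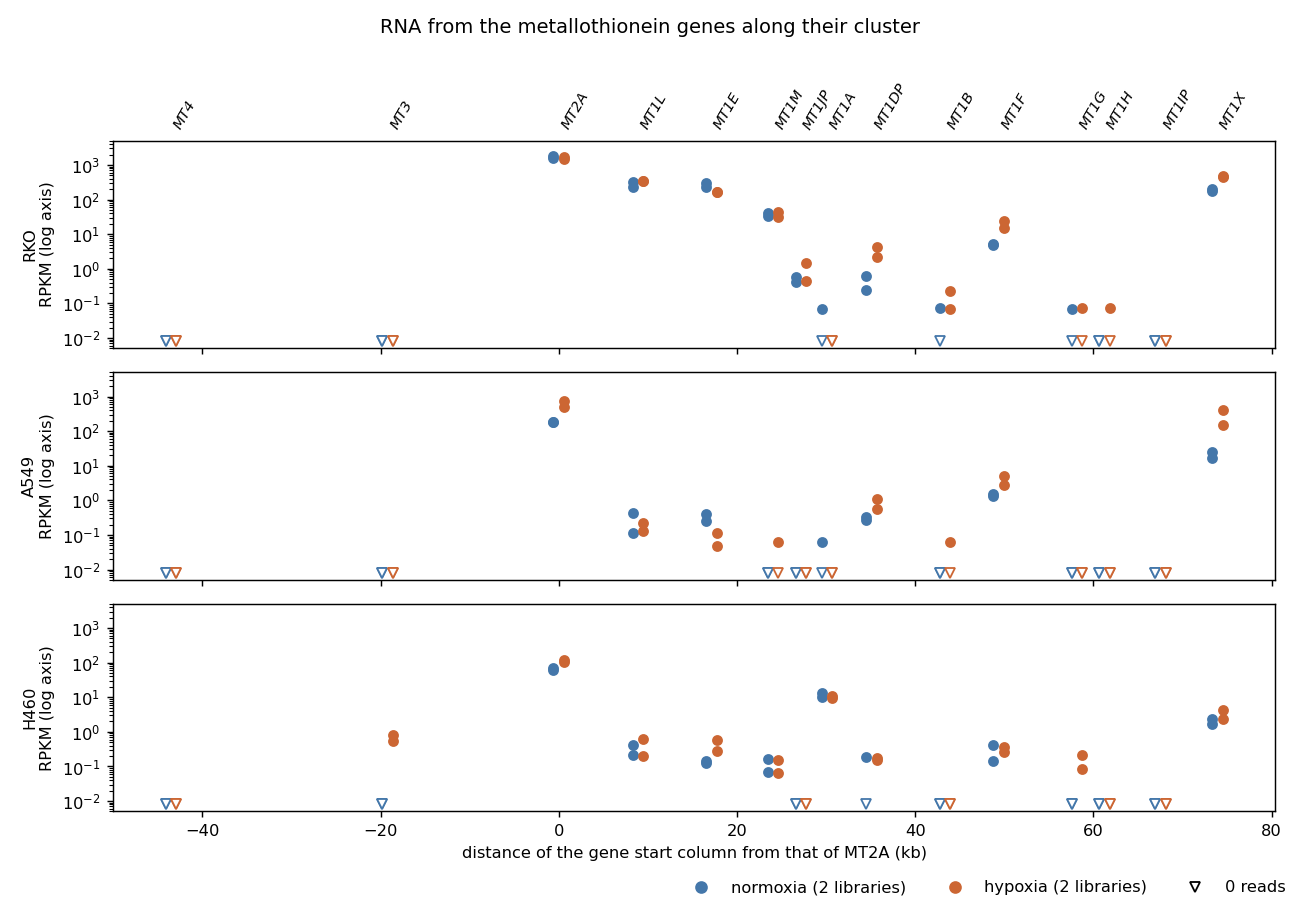
Deposited RPKM on a log axis for the metallothionein genes of the chromosome 16 cluster, placed by their distance in kilobases from MT2A, with a point per library and open triangles for 0 reads. MT2A, MT1L, MT1E and MT1M on the left and MT1X on the right carry most of the RNA in RKO. A549 shows MT2A and MT1X, with MT1F at 1.36 to 5.08 RPKM, and H460 shows MT2A, MT1A and MT1X.

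The second question of the design was what hypoxia did within each line. MT2A and MT1X both rose in A549 and H460, while in RKO MT1X and MT1F rose, MT1E fell and MT2A was not called. MTF1 and SLC30A1 were called in no line by edgeR or DESeq2, and only MTF1 in H460 had an unadjusted p under 0.05. Values within a line are counts and CPM scaled by TMM within that line, and adjusted p values are from edgeR's quasi-likelihood test on the 4 libraries of the line.

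MT2A had 24272 and 28435 reads in normoxic RKO and 23762 and 23077 in hypoxic RKO. The hypoxic libraries lay below the normoxic ones, but the difference was not called: 744 ± 52.1 CPM (SD, n = 2) became 630 ± 28.9 CPM, a log2 fold change of -0.24 ± 0.16 (adjusted p = 0.264). In A549, MT2A had 3087 and 3033 reads in normoxia and 8721 and 10965 in hypoxia, and the groups stood well apart. It rose from 75.7 ± 0.344 to 267 ± 76.0 CPM, a log2 fold change of 1.82 ± 0.22 or 3.53-fold (adjusted p = 0.0061). In H460, MT2A had 790 and 837 reads in normoxia and 1486 and 1554 in hypoxia, again with no overlap. It rose from 24.2 ± 2.28 to 53.2 ± 5.21 CPM, a log2 fold change of 1.14 ± 0.11 or 2.20-fold (adjusted p = 1.9e-06). Scaled by library size only, the rise in H460 was 0.78 on the log2 scale and was still called.

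MT1X had the largest log2 fold change of the members in A549. It had 2899 and 2620 reads in normoxic RKO and 7763 and 6148 in hypoxic RKO. It rose there from 78.2 ± 8.85 to 186 ± 18.3 CPM, a log2 fold change of 1.25 ± 0.16 (adjusted p = 0.00035). In A549 it had 277 and 393 reads in normoxia and 2508 and 6054 in hypoxia. The groups did not overlap, but the hypoxic libraries differed from each other by more than the normoxic libraries did. MT1X rose from 8.30 ± 2.17 to 119 ± 81.9 CPM, a log2 fold change of 3.84 ± 0.46 or 14.3-fold (adjusted p = 0.0060).

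The hypoxic A549 library with fewer MT1X reads was also the one with fewer NDRG1 reads. Without A549 hypoxia replicate 1 the log2 fold change of MT1X was 4.41, and without A549 hypoxia replicate 2 it was 2.88, so 1 library moved the estimate while the rise was called either way. For MT2A these values were 2.08 and 1.49. In H460, MT1X was scarce, with 26 and 22 reads in normoxia and 53 and 32 in hypoxia. It rose from 0.723 ± 0.181 to 1.52 ± 0.714 CPM, a log2 fold change of 1.07 ± 0.38 (adjusted p = 0.025). This call was lost without H460 hypoxia replicate 1 (0.53, adjusted p = 0.305), without H460 normoxia replicate 2 (0.78, adjusted p = 0.163) with scaling by library size only (0.71, adjusted p = 0.114), in the joint fit (adjusted p = 0.142) and with limma on log2(RPKM + 1), where the value of 0.48 was under the fold threshold.

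MT1F, another MT1 isoform, was rarer by far. It had 82 and 79 reads in normoxic RKO and 403 and 226 in hypoxic RKO, and rose from 2.28 ± 0.155 to 8.36 ± 2.81 CPM, a log2 fold change of 1.88 ± 0.31 or 3.67-fold (adjusted p = 0.0012). In A549 it had 24 and 26 reads in normoxia and 50 and 80 in hypoxia. The groups did not overlap, yet the log2 fold change of 1.51 ± 0.44 was not called (adjusted p = 0.155). It was called in 4 of 14 alternatives: without A549 hypoxia replicate 1 (1.91, adjusted p = 0.0049), with same-numbered replicates as a block (1.47, adjusted p = 0.0068), in the joint fit (1.53, adjusted p = 0.045) and with no low count filter (adjusted p = 0.079). In H460 it had 5 and 2 reads in normoxia and 5 and 4 in hypoxia and was not tested.

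MT1E moved the other way in the line that expressed it. It had 4204 and 5658 reads in normoxic RKO and 3285 and 2881 in hypoxic RKO, with every hypoxic library below the normoxic ones. It fell from 139 ± 23.2 to 82.8 ± 2.17 CPM, a log2 fold change of -0.75 ± 0.16 (adjusted p = 0.0048). Without RKO normoxia replicate 2 the value was -0.57 (adjusted p = 0.041), which is under the fold threshold. In A549 it had 8 and 5 reads in normoxia and 1 and 2 in hypoxia, and in H460 2 and 2 against 9 and 5, both too few to pass the filter within the line. Without that filter MT1E was called higher in H460 (log2 fold change 1.99, adjusted p = 0.074) and not called in A549 (-1.92, adjusted p = 0.461). In the joint fit it was likewise called higher in H460 (2.00 ± 0.64, adjusted p = 0.017) and not called in A549 (-1.90 ± 0.69, adjusted p = 0.116). These estimates rest on at most 9 reads in a library.

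MT1M had 642 and 559 reads in normoxic RKO and 528 and 637 in hypoxic RKO, so the groups overlapped. Its log2 fold change was -0.11 ± 0.22 (adjusted p = 0.720). In hypoxia MT1M had 0 and 1 reads in A549 and 2 and 1 in H460, all under the floor of 3 counts. MT1G had 0 and 1 reads in hypoxic RKO, 0 in both hypoxic A549 libraries, and 1 and 3 in hypoxic H460, and no change could be detected at this depth.

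Of the 8 members, 7 could be tested in RKO, where 2 were called higher and 1 lower. Over all 12817 genes tested in RKO, 18.8% were called higher and 15.1% lower. In A549, 5 members could be tested and 2 were called higher, against 2.22% of 14251 genes called higher and 0.456% called lower. In H460, 4 could be tested and 2 were called higher, against 24.6% of 14080 genes called higher and 27.3% called lower. Members left out by the filter on low counts had at most 9 reads in any library, so they are not counted as unchanged.

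**Figure D3:**
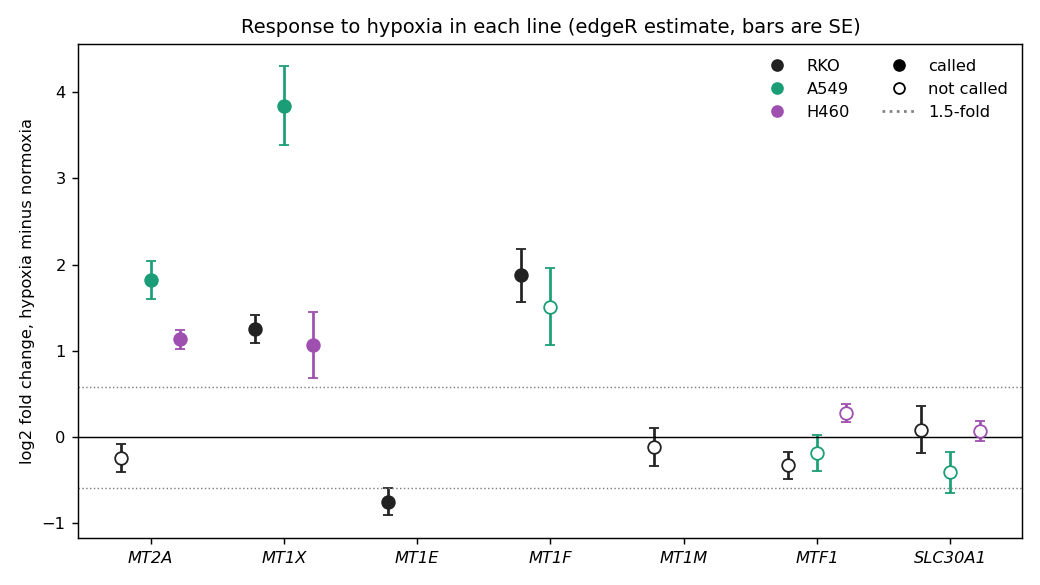
The log2 fold change of hypoxia over normoxia, with its SE, for each member tested in each line, where filled points were called and dotted lines mark a 1.5-fold change. MT1X lies above the upper line in all 3 lines, from 1.07 in H460 to 3.84 in A549, MT2A only in A549 and H460, and MTF1 and SLC30A1 lie between the lines throughout.

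The members' shares of the family changed as well, so the counts of all MT1 and MT2A rows were summed in each library, over 14 genes. Reads that move between copies stay within this sum. Scaled by TMM over 12 libraries, the sum was 981 and 1030 CPM in normoxic RKO and 1021 and 1011 CPM in hypoxic RKO. In A549 it was 81.1 and 85.1 CPM in normoxia and 271 and 498 CPM in hypoxia, and in H460 34.5 and 29.2 CPM against 71.6 and 60.4 CPM. The log2 difference of the group means was 2.21 in A549, 1.05 in H460 and 0.014 in RKO, and no test was run on this sum. Thus in RKO the total stayed within the spread of the replicates while its make-up moved, and in the lung lines the total was higher in hypoxia in both libraries.

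In RKO, MT1X made up 7.85% and 6.38% of the summed reads in normoxia and 18.7% and 16.2% in hypoxia. MT1E made up 11.4% and 13.8% in normoxia and 7.93% and 7.59% in hypoxia, and MT2A went from 65.7% and 69.3% to 57.4% and 60.8%. In A549, MT1X made up 8.14% and 11.3% in normoxia and 22.2% and 35.3% in hypoxia. In H460, MT2A made up 81.1% and 84.1% in normoxia and 87.6% and 89.5% in hypoxia, and MT1X stayed between 1.84% and 3.12%. Hypoxic A549 still held less of the family than normoxic RKO, whose lowest library stood at 981 CPM against 498 CPM for the highest A549 library.

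**Figure D4:**
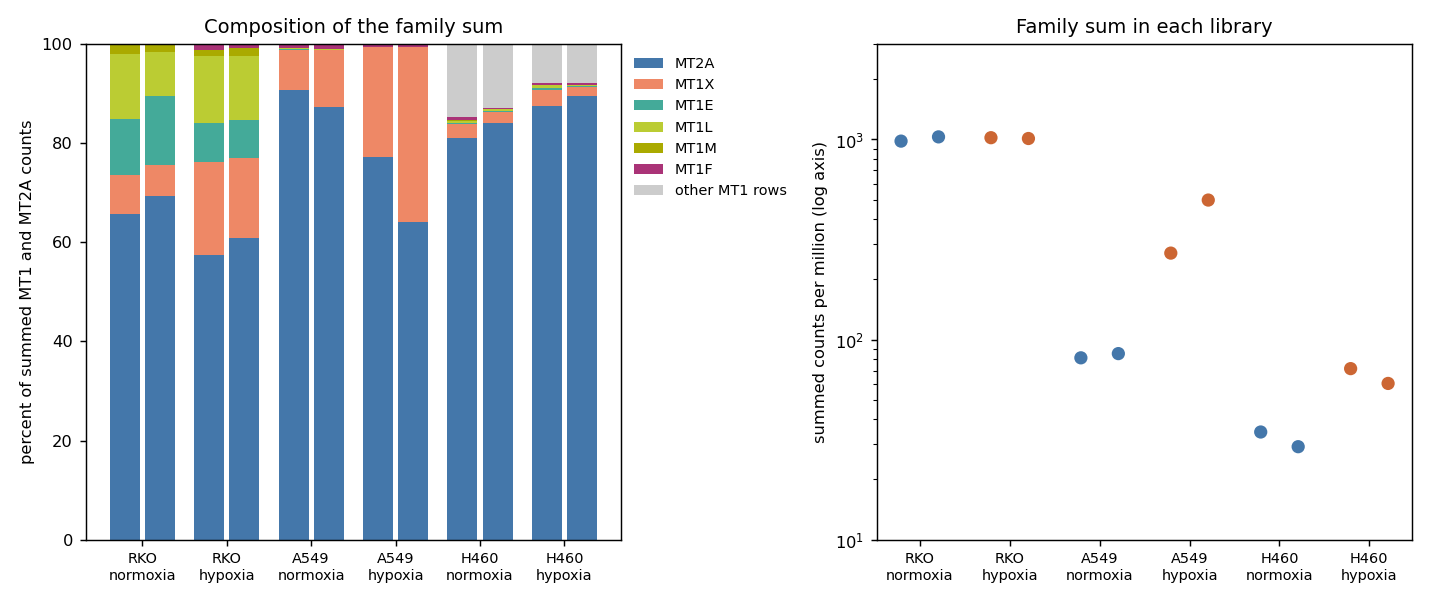
Left, the percent of the summed MT1 and MT2A counts that each gene makes up in each of the 12 libraries; right, the sum in CPM on a log axis, with a point per library, blue for normoxia and orange for hypoxia. MT2A is the largest part of every bar, the MT1X part grows in hypoxic RKO and A549, and the sum in RKO stays between 981 and 1030 CPM.

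MTF1, the zinc sensor, had 1482 and 1535 reads in normoxic RKO and 1323 and 1207 in hypoxic RKO. The groups did not overlap, but the log2 fold change of -0.33 ± 0.16 was not called (adjusted p = 0.127). In A549 it had 797 and 771 reads in normoxia and 752 and 540 in hypoxia, a log2 fold change of -0.18 ± 0.21 (adjusted p = 0.710). In H460 it had 649 and 747 reads in normoxia and 678 and 759 in hypoxia. The adjusted p there was 0.032, but the log2 fold change of 0.28 ± 0.10 was under the fold threshold, and it turned to -0.08 with scaling by library size only. That scaling shifted the median of all genes in H460 by -0.35 on the log2 scale, so the direction of small changes in that line depends on the scaling.

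SLC30A1, the zinc exporter, had 319 and 560 reads in normoxic RKO and 437 and 533 in hypoxic RKO. The groups overlapped, and the log2 fold change was 0.09 ± 0.27 (adjusted p = 0.827). In A549 it had 1496 and 1031 reads in normoxia and 1054 and 725 in hypoxia, and after scaling the groups were 31.2 ± 7.60 and 23.5 ± 3.22 CPM. The log2 fold change of -0.41 ± 0.23 was not called (adjusted p = 0.419). In H460 it had 471 and 594 reads in normoxia and 413 and 537 in hypoxia, a log2 fold change of 0.07 ± 0.12 (adjusted p = 0.623) that turned to -0.29 with scaling by library size only. SLC30A1 was thus called in no line, and any part of MTF1 in the changes of its known targets was not tested.

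Whether the lines differed in their hypoxia effect was tested as an interaction of line and oxygen in the joint fit. At an adjusted p under 0.1, 4 members passed, against 48.8% of the 15595 genes tested: MT2A (adjusted p = 0.00022), MT1X (0.0034), MT1E (0.0091) and MTF1 (0.077). MT1F (adjusted p = 0.449), MT1M (0.547) and SLC30A1 (0.346) did not pass. The result for MT1E rests on 9 or fewer reads in each A549 and H460 library. Its hypoxia effect was lower in RKO than in H460 (RKO minus H460 -2.69 ± 0.66, adjusted p = 0.0075) and lower in A549 than in H460 (A549 minus H460 -3.91 ± 0.94, adjusted p = 0.0079), and the first of these was lost without H460 hypoxia replicate 1 (-2.09, adjusted p = 0.108). The comparisons between pairs of lines share libraries, so their values are given side by side.

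For MT2A, the hypoxia effect in RKO was below that in A549 by 2.01 on the log2 scale (RKO minus A549 -2.01 ± 0.25, adjusted p = 0.00054) and below that in H460 (-1.33 ± 0.25, adjusted p = 0.0016). Between A549 and H460 it differed by 0.68 ± 0.25 (adjusted p = 0.058), which was lost without A549 hypoxia replicate 2 (0.35, adjusted p = 0.249), without H460 normoxia replicate 1 (0.59, adjusted p = 0.179) and without H460 hypoxia replicate 2 (0.55, adjusted p = 0.205). For MT1X, the effect in A549 exceeded that in RKO (RKO minus A549 -2.55 ± 0.52, adjusted p = 0.011) and in H460 (A549 minus H460 2.78 ± 0.73, adjusted p = 0.013). Both passed in all 18 alternatives, but without A549 hypoxia replicate 2 they were -1.57 and 1.81, and without A549 hypoxia replicate 1 they were -3.12 and 3.36. RKO and H460 were not told apart for MT1X (0.23 ± 0.71, adjusted p = 0.864). For MTF1, the effect in RKO was below that in H460 (-0.56 ± 0.20, adjusted p = 0.051). This was -0.17 (adjusted p = 0.578) with scaling by library size only, and it was lost in 8 of 18 alternatives, among them the fits without RKO normoxia replicate 1, RKO hypoxia replicate 2, either H460 normoxia replicate or H460 hypoxia replicate 1 (adjusted p from 0.109 to 0.173). Of all genes tested, 14.6% passed for RKO against A549, 37.6% for RKO against H460 and 36% for A549 against H460.

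Averaged over the lines with equal weight, 3 of the members in the joint fit were called in either direction, and all of these were higher. They were MT2A (0.94 ± 0.10, adjusted p = 6.2e-06), MT1X (2.09 ± 0.26, adjusted p = 2.1e-05) and MT1F (1.35 ± 0.33, adjusted p = 0.0038). Of all genes tested, 26.4% were called in either direction by that average.

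Other genes that carry zinc were read from lists of the exporters SLC30A1 to SLC30A10 and the importers SLC39A1 to SLC39A14. In A549, 0 of 7 exporters and 0 of 11 importers tested were called by edgeR or by DESeq2, and 0 and 1 had an unadjusted p under 0.05. Over all genes tested in A549, edgeR called only 2.22% higher and 0.456% lower. In RKO, 1 of 6 exporters tested was called higher, SLC30A4, which loads zinc into vesicles, at 7.14 and 6.04 CPM in normoxia and 10.9 and 11.8 CPM in hypoxia (log2 fold change 0.78 ± 0.23, adjusted p = 0.022). Of 11 importers 1 was called lower in RKO, SLC39A4, the importer of dietary zinc, at 30.2 and 30.7 CPM in normoxia and 15.9 and 16.8 CPM in hypoxia (-0.90 ± 0.18, adjusted p = 0.0029). Over all genes tested in RKO, 18.8% were called higher and 15.1% lower, as given above.

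In H460, transporters were called in both directions, in a line in which 24.6% of all genes tested were called higher and 27.3% lower. Of 7 exporters tested, 2 fell, SLC30A3 (-1.14 ± 0.24) and SLC30A6 (-1.16 ± 0.10), both of which load zinc into vesicles or the Golgi. Of 11 importers tested, SLC39A3 (-2.12 ± 0.13), SLC39A10 (-0.89 ± 0.09) and SLC39A11 (-0.76 ± 0.13) fell. SLC39A7, which releases zinc from the endoplasmic reticulum, rose by 1.07 ± 0.10, SLC39A8 by 0.86 ± 0.12 and SLC39A13 by 0.70 ± 0.09, but the last 2 were not called with scaling by library size only (0.51 and 0.35). That scaling also called lower the exporter SLC30A5 (-0.69) and the importers SLC39A4 (-0.78), SLC39A6 (-0.73) and SLC39A14 (-0.67). The importers thus went from 3 higher and 3 lower to 1 higher and 6 lower, and the exporters from 2 lower to 3 lower. Over all 14080 genes tested in H460, the same change of scaling took the calls from 3467 higher and 3837 lower to 2075 and 5758. The median log2 fold change of the importers tested in H460 was -0.31 against -0.04 over all genes tested, and that of the exporters was -0.06. In RKO these medians were -0.29 for importers, -0.03 for exporters and 0.007 over all genes. In A549 they were -0.11, -0.21 and -0.01.

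**Figure D5:**
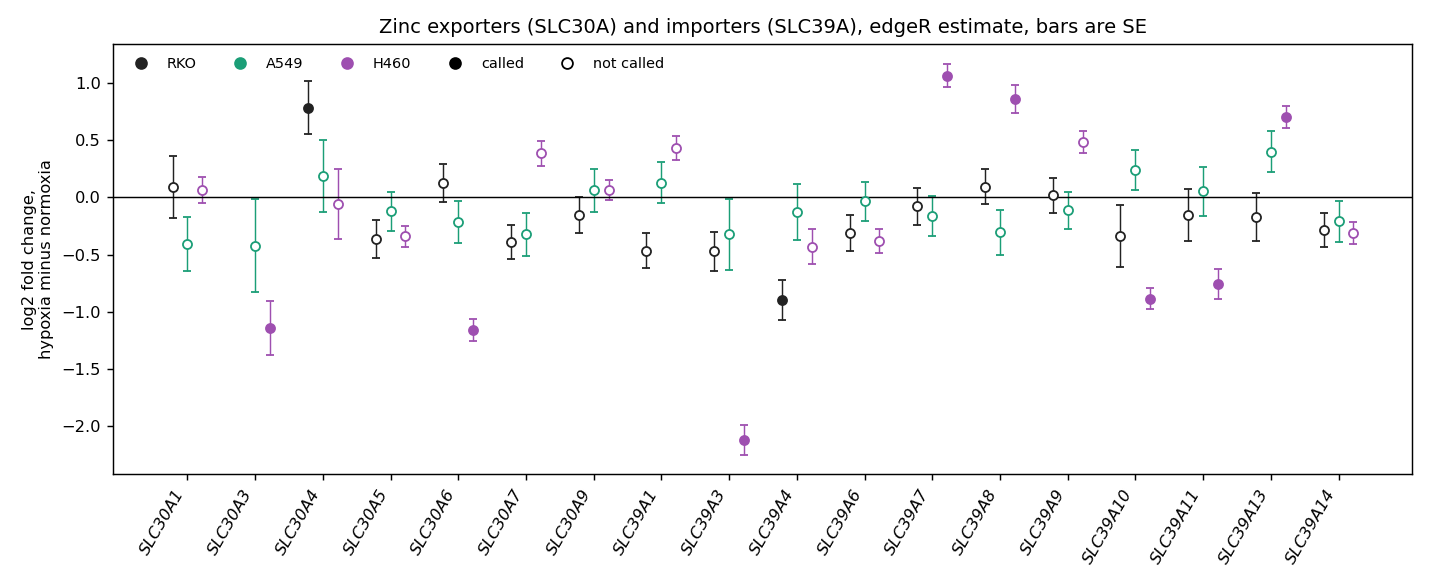
The log2 fold change of hypoxia over normoxia, with its SE, for each zinc exporter (SLC30A) and importer (SLC39A) tested in each line, where filled points were called. The called points are SLC30A4 and SLC39A4 in RKO and 8 genes in H460, while no A549 point is filled. Of all genes tested in A549, 2.22% were called higher and 0.456% lower.

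Metallothioneins also bind copper, so a list of 10 copper handling genes was read in the same way. In A549, 0 were called by edgeR or DESeq2 and 0 had an unadjusted p under 0.05. Over all genes tested in that line, edgeR called 2.22% higher and 0.456% lower. In RKO, ATP7A, a copper pump, rose by 0.88 ± 0.18 on the log2 scale, while SCO1 and SCO2, which bring copper to cytochrome c oxidase, fell (-1.05 ± 0.16 and -0.93 ± 0.21). In H460, ATP7A rose by 1.11 ± 0.10, and SCO1 (-1.27 ± 0.09), SCO2 (-0.65 ± 0.12), the copper chaperone ATOX1 (-0.92 ± 0.11) and the copper-zinc superoxide dismutase SOD1 (-0.68 ± 0.09) fell. That made 1 higher and 2 lower of 10 in RKO and 1 higher and 4 lower of 10 in H460, to be read against the same shares over all genes, 18.8% and 15.1% in RKO and 24.6% and 27.3% in H460. Of the metallothionein family beyond the members, MT1DP, an annotated pseudogene, rose in RKO, with 13 and 5 reads in normoxia and 95 and 43 in hypoxia (2.82 ± 0.55, adjusted p = 0.0029).

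The genes whose pattern was most like that of MT2A were found by Pearson correlation of log2 CPM over the 12 libraries, after the mean of each line was subtracted, among 12391 genes with a mean of at least 100 counts. They were STEAP3 (r = 0.972), EGLN3 (0.967), CARD10 (0.966), SCUBE1 (0.962) and LOX (0.956). EGLN3 had too few reads to be tested in RKO and SCUBE1 in RKO and A549, so they reached that mean through the other lines and the hypoxia change in those lines was not tested. STEAP3 is a metalloreductase, EGLN3 an oxygen-sensing prolyl hydroxylase and LOX a copper-dependent enzyme of the matrix. For SLC30A1 they were FAM73B (0.887), MMP16 (0.884), SETD1A (0.874), NFKBID (0.866) and LUC7L (0.865), of which MMP16 was not tested in RKO. Among the members, MT2A and MT1X had r = 0.866, MT1X and MT1F 0.830, and MT2A and SLC30A1 -0.36. MT1E had r = -0.008 with MT2A and 0.806 with MTF1, with 9 or fewer MT1E reads in each lung library. MTF1 had r = 0.03 with MT2A, -0.39 with MT1X and -0.50 with MT1F. These values share libraries and scaling, and they are descriptions over 12 points.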

How the data were processed

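Poly(A)+ RNA of normoxic and hypoxic RKO, A549 and H460 cells was sequenced (12 libraries; groups from the sample titles). Per the labels and the study's methods, the authors aligned single-end stranded reads with TopHat2 2.0.13 and Bowtie2 2.2.3.0 to GRCh37/hg19 with the UCSC annotation, removed alignments of low mapping quality and counted with HTSeq 0.6.1. The deposited counts, whole numbers for 25369 genes, were the input of all main tests. The authors also deposited RPKM, the same counts scaled by gene length and library total, which was used for levels and an alternative. All 12 sample columns of each table were used. The deposited start column counts from 0 and was moved to 1-based positions.

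R 4.3.3 was used. The 4 libraries of a line were compared by the quasi-likelihood test of edgeR 4.0.16 after TMM scaling, for genes that passed 0.5 CPM in 2 or more libraries, and all 12 libraries entered 1 joint fit for differences between lines. P values were Benjamini-Hochberg adjusted over all genes tested, two-sided, and a call needed an adjusted p under 0.1 and a fold over 1.5 (interaction tests the adjusted p alone), as in the study. Alternatives were DESeq2 1.42.0, RLE factors, library size only, no filter, limma 3.58.1 on log2(RPKM + 0.1) and log2(RPKM + 1), the joint fit, other thresholds, a replicate block and leaving out each library. The scripts were tested on simulated data. Replicates differed by more than sampling noise, and with 2 per group p values rest on few libraries. Zero counts allow up to 3 counts; intervals are exact binomial at 95%. Sequences and motifs came from RefSeq (GRCh38.p14) and transcripts from GENCODE on GRCh37, compared with edlib 1.3.9.post1. All members and the transporter, copper and hypoxia lists were named where called, and like genes by the highest correlation. The members, lists and named genes were chosen with earlier results of these data known.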

Additional observations from a re-analysis of the deposited data

Results flagged for a closer look

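The hypoxia effect differed between pairs of lines for 4 members, by contrasts of the interaction in the joint edgeR fit (adjusted p under 0.1). Of all 15595 genes tested, 14.6% passed for RKO against A549, 37.6% for RKO against H460 and 36% for A549 against H460. For MT2A the log2 difference was -2.01 for RKO minus A549, -1.33 for RKO minus H460 and 0.68 for A549 minus H460, the last of which was lost in 4 of 18 alternatives. For MT1X it was -2.55 for RKO minus A549 and 2.78 for A549 minus H460. For MT1E it was -2.69 for RKO minus H460 and -3.91 for A549 minus H460, from 9 or fewer reads in each library of the lung lines, and the former was lost without H460 hypoxia replicate 1 (-2.09, adjusted p = 0.108). For MTF1 it was -0.56 for RKO minus H460, which was lost in 8 of 18 alternatives (-0.17, adjusted p = 0.578, with library size only). No group here had the 4 or more samples that a test for outlying libraries needs.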

How the results depend on the processing

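Of 746 alternative values for 45 effects of single members, 697 kept their direction and their side of the threshold, 17 changed sign, 23 fell short of the threshold and 9 newly passed it. The alternatives with other thresholds reuse the main estimates, so no sign could change in them. Dropping the fold threshold could also not lose a call. The calls of MT2A in A549 and H460, of MT1X in RKO and A549 and of MT1F in RKO held under all 14 alternatives. The count of members called was 3 in RKO under every alternative except without RKO normoxia replicate 2 (2), and 2 to 3 in A549. In H460 it was 3 with no filter, which added MT1E, and with no fold threshold, which added MTF1, 1 with library size only and with log2(RPKM + 1), and 1 to 2 when libraries were left out. Between normoxic A549 and H460 it was 3 to 5 when libraries were left out, the 3 without A549 normoxia replicate 1. For the family sum, leaving out MT2A moved the log2 difference to 0.35 in RKO, 3.72 in A549 and 0.45 in H460, summing before the edgeR fit gave -0.046 in RKO, leaving out libraries gave -0.020 to 0.050 there, and library size only gave 0.68 in H460.

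Among tested effects, signs turned only for ones that were not called. With library size only, log2(RPKM + 0.1) and log2(RPKM + 1), MTF1 in H460 was -0.077, -0.074 and -0.057 and SLC30A1 in H460 -0.29, -0.28 and -0.26. With libraries left out, SLC30A1 in H460 ran from -0.0013 to 0.14. In RKO, MT1M ran from -0.31 to 0.12 (0.039 without normoxia replicate 1, 0.12 without hypoxia replicate 1) and SLC30A1 from -0.23 to 0.50 (-0.23 without normoxia replicate 1, -0.12 without hypoxia replicate 2). Between lines, MTF1 (RKO minus A549) was 0.028 with library size only and ran from -0.19 to 0.0047, SLC30A1 (RKO minus H460) ran from -0.24 to 0.48, and MT1X (RKO minus H460) from -0.22 to 0.78. The cause was not tested.

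Same-numbered replicates deviated together (r = 0.340 in RKO, 0.344 in A549 and 0.113 in H460), but no source says that a number marks a shared day. With the replicate block, 3 members were called in RKO, 3 in A549, where MT1F was added (1.47, adjusted p = 0.0068), 2 in H460 and 5 in the interaction. The block called 2532 genes higher and 2053 lower of 12817 in RKO, and 3478 and 3861 of 14080 in H460. Without the block, 48.8% of all 15595 genes passed the interaction, and the share with the block is not given here. Over all genes, A549 calls were 316 higher and 65 lower, 1189 and 723 with the block, 608 and 263 with DESeq2, 587 and 213 with no filter, 957 and 440 in the joint fit, 151 and 41 with library size only, 131 and 49 with log2(RPKM + 0.1), 106 and 38 with log2(RPKM + 1), 144 and 21 at adjusted p under 0.05, 1083 and 752 without hypoxia replicate 1 and 169 and 68 without hypoxia replicate 2. In H460, library size only gave 2075 higher and 5758 lower against 3467 and 3837. The low counts of MT1E, MT1F, MT1G and MT1M in the lung lines set the limit there.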
